A study of Mus musculus with 6 samples.

Results

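The glucocorticoid receptor and its response genes are described here in mouse quadriceps through 8 genes, chosen by name with earlier results of these data known. They are the receptor gene Nr3c1 and the response genes Fkbp5, Tsc22d3, Sgk1, Zbtb16, Dusp1, Mt1 and Mt2. All 8 had 1 row each among the 22481 gene symbols of the deposited table. The study sequenced ribosomal RNA-depleted total RNA from frozen quadriceps of mice in which the gene of the F-box protein Fbxw7, the substrate-recognition subunit of an SCF ubiquitin ligase, was floxed. The 3 control libraries came from the genotype Fbxw7 flox/flox, and the 3 knockout libraries from MCK-Cre+/-, Fbxw7 flox/flox. The muscle creatine kinase promoter drives Cre in muscle fibres, so other cells of the tissue keep the gene. Controls carried no Cre, so the transgene and the loss of Fbxw7 cannot be told apart. The labels name no drug or hormone treatment and state neither age, sex, time of day nor feeding state, and they do not say whether each library is a separate animal. The p-values then measure the spread between these libraries, which may be technical.

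Glucocorticoids such as corticosterone bind the receptor, which waits in the cytoplasm in a complex with Hsp90 and its co-chaperones, enters the nucleus, and activates genes that carry its response element. In skeletal muscle this programme is known for restraining protein synthesis and glucose uptake, for driving atrophy genes during fasting and stress, and for negative feedback through Fkbp5. Metallothioneins are induced by glucocorticoids and, through the metal sensor Mtf1, by zinc and other metals.

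Levels are given as FPKM, fragments per kilobase of transcript and per number of fragments mapped in the library, as the authors deposited them. Changes are knockout minus control on the scale of log2(FPKM + 0.1), from a linear model fitted with limma across the 11659 genes whose mean over the libraries reached 0.5 FPKM. A gene is called raised or lowered where its Benjamini-Hochberg adjusted p over all of these genes is under 0.05. The libraries held an estimated 8435731 to 11783852 fragments in controls and 3150443 to 6704228 in knockouts, and knockout replicate 1 was the shallowest. The median change over all tested genes was 0.21. Median-of-ratios scaling and quantile normalization between libraries brought that median to 0.01 and -0.0048, so each change of the 8 genes is also given relative to it. The targeted gene Fbxw7 stood at 6.51, 6.23 and 6.36 FPKM in controls and 4.02, 3.86 and 3.81 FPKM in knockouts, and was lowered by limma's test (log2 change -0.69, SE 0.12, adjusted p = 0.0028). Muscle fibre markers were abundant in every library, summing to 66838 to 68343 FPKM over 11 genes in controls and 31189 to 32898 FPKM in knockouts.

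In knockout muscle 3 of the response genes were lower and the metallothionein pair was higher, while the receptor itself did not pass the test. Of the 8 genes, 5 were called: Sgk1, Tsc22d3 and Fkbp5 were lowered, and Mt1 and Mt2 were raised. Among all tested genes 34.6% were called, with 10.1% lowered and 24.5% raised. Because the 8 genes were chosen with earlier results of these data known, these shares do not test them as a set. The same 5 genes had groups that did not overlap, as did 49.8% of all tested genes. Nr3c1, Zbtb16 and Dusp1 were not called. The median change of the 8 genes was -0.03, against 0.21 over all tested genes, and all 8 passed the filter on low values. The 48 single values rest on 76 to 3351 estimated fragments each.

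**Figure D1:**
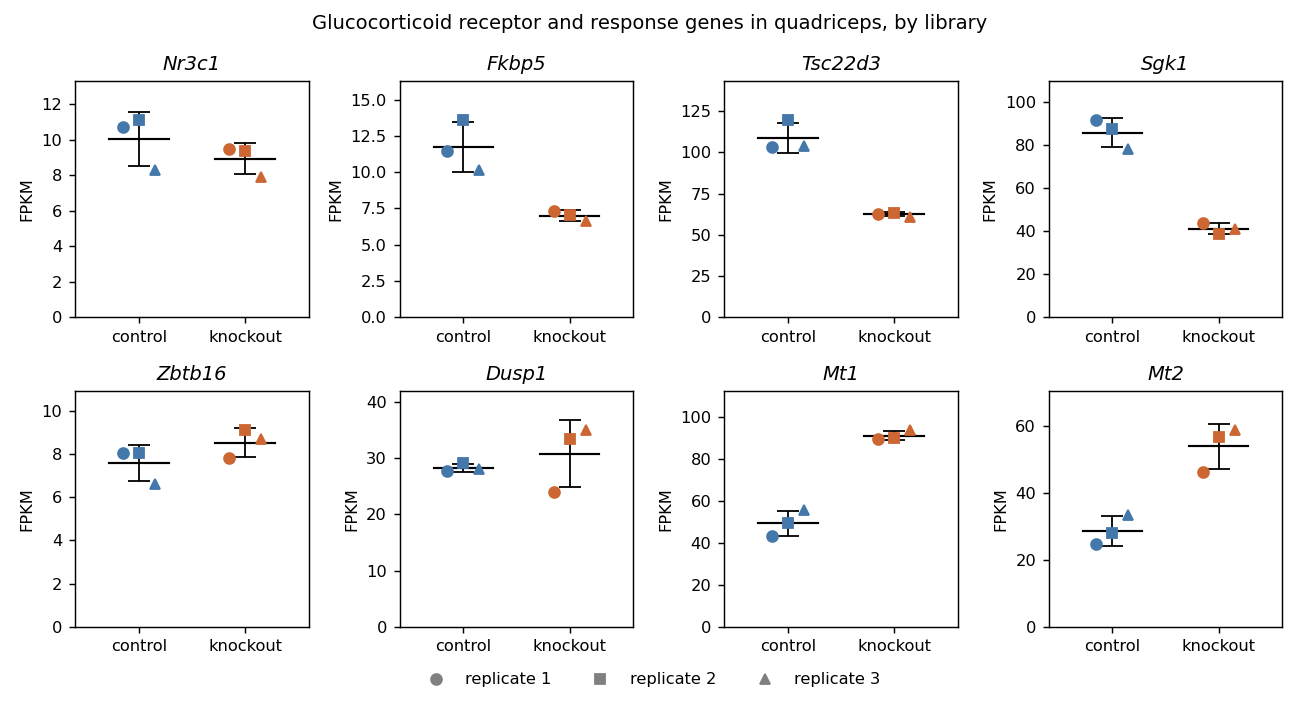
FPKM of the 8 genes in each of the 6 quadriceps libraries (points, shape by replicate number), with the group mean (line) and SD (bars, n = 3) for control and knockout. Fkbp5, Tsc22d3 and Sgk1 sit lower in all 3 knockouts than in any control, Mt1 and Mt2 sit higher in all 3, and the groups overlap for Nr3c1, Zbtb16 and Dusp1.

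Nr3c1 (ENSMUSG00000024431, mm10 chromosome 18, 39410545 to 39519421, minus strand) encodes the glucocorticoid receptor. Its level was 10.7, 11.1 and 8.27 FPKM in control replicates 1, 2 and 3 and 9.49, 9.37 and 7.91 FPKM in the knockouts. The third control lay below the first 2 knockouts, so the groups overlapped. The means were 10.02 ± 1.53 and 8.92 ± 0.881 FPKM (SD, n = 3), a log2 change of -0.16 with a 95% interval from -0.49 to 0.17 (limma, adjusted p = 0.419). Relative to the median gene the change was -0.37. Under median-of-ratios scaling the fitted change was -0.36 with an adjusted p of 0.0596, and under quantile normalization it was -0.34 with an adjusted p of 0.0761. For the FPKM as deposited, the interval leaves room for a receptor transcript lower by up to 0.49 or higher by up to 0.17 in the knockouts. These bounds do not hold for the rescaled fits, whose estimates lay lower. The mineralocorticoid receptor gene Nr3c2, whose protein also binds corticosterone, had 1.43 ± 0.206 FPKM in controls and 1.57 ± 0.339 FPKM in knockouts, and was not called (adjusted p = 0.723).

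Fkbp5 (ENSMUSG00000024222, chromosome 17, 28399094 to 28517527, minus strand) encodes FKBP51, an immunophilin co-chaperone that lowers the receptor's affinity for hormone and is itself induced by the receptor. It measured 11.5, 13.6 and 10.2 FPKM in controls and 7.35, 7.05 and 6.60 FPKM in knockouts. All 3 knockouts lay below the lowest control. The means of 11.7 ± 1.71 and 7.001 ± 0.374 FPKM differed by a log2 change of -0.73 (SE 0.13, limma adjusted p = 0.0037), or -0.94 relative to the median gene.

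Tsc22d3 (ENSMUSG00000031431, chromosome X, 140539528 to 140600659, minus strand) encodes GILZ, the glucocorticoid-induced leucine zipper, which restrains NF-kappaB and AP-1. It had the highest FPKM of the 8 genes in controls, and stood second to Mt1 in knockouts, at 103, 119 and 104 FPKM in controls and 62.8, 63.5 and 61.1 FPKM in knockouts. The 3 knockout values lay close together, all below the lowest control. From 109 ± 9.21 to 62.5 ± 1.27 FPKM the log2 change was -0.80 (SE 0.08, limma adjusted p = 0.000145), or -1.01 relative to the median gene. Among TSC22 domain genes, 4 were tested, with 1 raised, 1 lowered and a median change of -0.05. Tsc22d1, which encodes a leucine zipper protein of the same family, rose from 38.6 ± 2.84 to 48.6 ± 1.11 FPKM (adjusted p = 0.0136), a call that was lost under median-of-ratios scaling and without control replicate 1. Tsc22d2 and Tsc22d4 were not called, but with median-of-ratios scaling Tsc22d4 was lowered (log2 change -0.41, adjusted p = 0.0162), so that the list then had 2 lowered genes and none raised.

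Sgk1 (ENSMUSG00000019970, chromosome 10, 21882184 to 21999903, plus strand) encodes the serum- and glucocorticoid-regulated kinase, a relative of Akt that acts on ion channels and on FoxO factors. It had the largest fall of the 8 genes. Controls measured 91.6, 87.8 and 78.4 FPKM and knockouts 43.9, 38.6 and 41.2 FPKM. The highest knockout stood well under the lowest control. Mean levels of 85.9 ± 6.78 and 41.2 ± 2.68 FPKM gave a log2 change of -1.06 (SE 0.09, limma adjusted p = 5.91e-05), or -1.27 relative to the median gene, and controls were 2.09-fold higher.

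Sgk1 has 6 annotated transcript starts in RefSeq (build GRCm38.p6), and the deposited level sums over them. The window of the fifth start, on the plus strand, is shown because it holds the densest set of glucocorticoid letters among the 13 windows described. These belong to 6 of the genes, without Nr3c1 and Zbtb16. Capitals mark the receptor hexamer AGAACA, which forms 1 arm of its palindromic element, and the centre of that element, ACANNNTGT, on either strand.
Sgk1 chr10:21993640-21993889: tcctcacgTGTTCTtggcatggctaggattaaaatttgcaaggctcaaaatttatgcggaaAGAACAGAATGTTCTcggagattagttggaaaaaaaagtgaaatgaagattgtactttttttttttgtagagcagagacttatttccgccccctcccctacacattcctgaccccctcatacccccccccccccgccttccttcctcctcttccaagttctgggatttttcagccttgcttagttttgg
Hexamers began at -242 on the opposite strand, at -189 on the same strand and at -180 on the opposite strand, counted from the transcript start. The last pair face each other with 3 bases between, and the core at -186 to -178 overlaps both of them. This full palindrome, looked for after its parts were seen, stood in 3 of 32851 RefSeq windows of 300 bases, or 0.00913% of them. The hexamer alone was in 19.0% of all windows and the core alone in 6.85%. The letters are a description of the sequence and not evidence that the receptor binds there.

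The other windows held fewer such letters. A single hexamer was present at Sgk1 starts 1 and 4 and at the first of 3 Tsc22d3 starts, and a single core at Sgk1 start 2. The Fkbp5 window held none of the motifs searched. In these 3 lowered genes the counts of letters near the start thus ranged from none to the full palindrome.

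**Figure D2:**
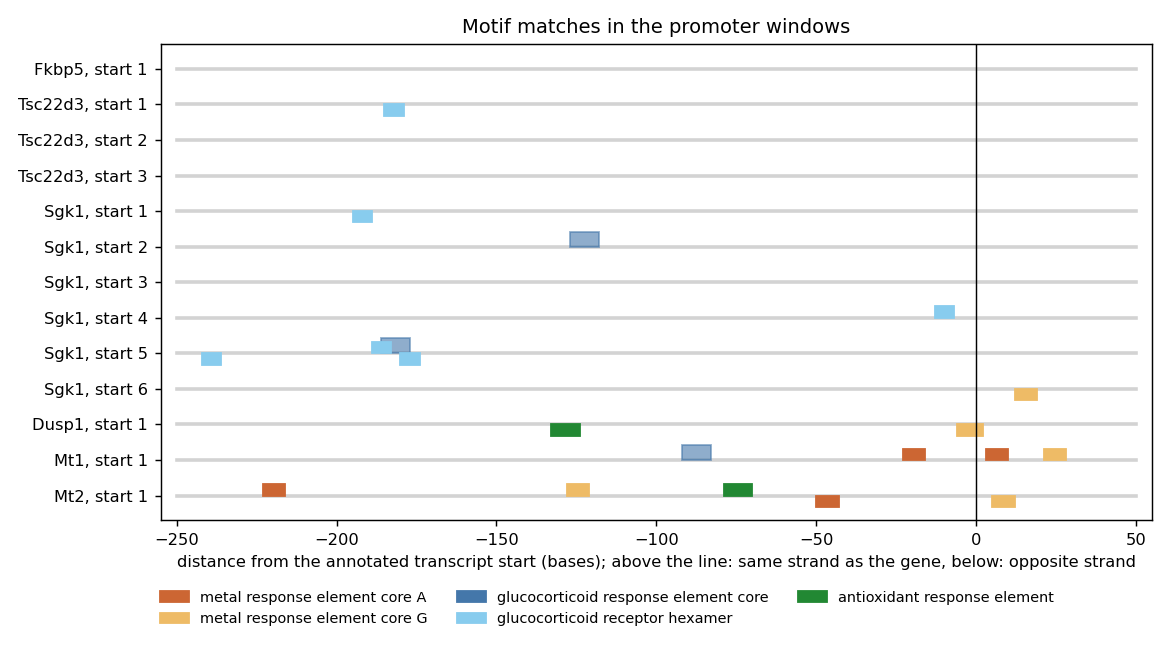
Motif matches in the 13 RefSeq promoter windows, by distance in bases from the annotated transcript start, from 250 bases before it to 50 after; boxes above a line are on the gene's strand and boxes below it on the opposite strand. Sgk1 start 5 holds 3 hexamers and 1 overlapping core, Mt1 and Mt2 hold 3 and 4 metal response element cores, and Fkbp5 holds none.

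Zbtb16 (ENSMUSG00000066687, chromosome 9, 48654297 to 48836222, minus strand) encodes PLZF, a zinc finger transcription factor that glucocorticoids induce strongly in many tissues. It did not follow the 3 lowered genes. Controls measured 8.06, 8.02 and 6.60 FPKM and knockouts 7.79, 9.10 and 8.67 FPKM. The first knockout lay below 2 of the controls, so the groups overlapped. The change was 0.17 with a 95% interval from -0.12 to 0.47 (limma, adjusted p = 0.321), and -0.03 relative to the median gene. The change was -0.03 with median-of-ratios scaling and -0.04 after quantile normalization, so its sign turned and no direction can be given.

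Dusp1 (ENSMUSG00000024190, chromosome 17, 26505590 to 26562128, minus strand) encodes the phosphatase MKP-1, which switches off p38 and Jnk kinases and is an early target of both the receptor and stress kinases. Controls were close together at 27.6, 29.1 and 27.97 FPKM, and knockouts spread over 24.0, 33.3 and 35.0 FPKM. The first knockout lay below every control and the other two lay above every control. The change was 0.11 with a 95% interval from -0.21 to 0.42 (limma, adjusted p = 0.580), and -0.10 relative to the median gene. It was also -0.10 under median-of-ratios scaling. The low value of knockout replicate 1 rests on 175 estimated fragments, whose exact 95% Poisson interval of 150 to 203 covers counting error only. Without that library the change was 0.27 and passed the test (adjusted p = 0.0352). The median over all tested genes was 0.23 in that refit, so the change of Dusp1 relative to it was only 0.04. An exon of Ergic1 overlaps Dusp1 on the opposite strand, and whether counting used strand is not stated. Ergic1 stood at 17.0 ± 1.73 FPKM in controls and 16.8 ± 1.39 FPKM in knockouts (adjusted p = 0.899).

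Mt1 (ENSMUSG00000031765, chromosome 8, 94179082 to 94180327, plus strand) and Mt2 (ENSMUSG00000031762, chromosome 8, 94172664 to 94173568, plus strand) are neighbours and encode small cysteine-rich proteins that bind zinc and copper and buffer oxidants. Mt1 measured 43.5, 49.4 and 55.5 FPKM in controls and 89.8, 90.1 and 93.9 FPKM in knockouts. Mt2 measured 24.7, 28.1 and 33.6 FPKM in controls and 46.5, 57.0 and 58.9 FPKM in knockouts. For both genes every knockout lay above every control. Mt1 rose from 49.5 ± 6.01 to 91.3 ± 2.27 FPKM, a log2 change of 0.89 (SE 0.09, limma adjusted p = 0.000238), and was 1.84-fold higher. Mt2 rose from 28.8 ± 4.49 to 54.1 ± 6.72 FPKM, a log2 change of 0.91 (SE 0.13, limma adjusted p = 0.0013), and was 1.88-fold higher. Relative to the median gene the changes were 0.68 and 0.70.

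The balance of the metallothionein pair was also compared, since a share within a library needs no scaling between libraries. Mt1 made up 63.8%, 63.7% and 62.3% of the summed FPKM of both genes in controls and 65.9%, 61.2% and 61.4% in knockouts. The difference of -0.40 percentage points between means of 63.3% ± 0.844 and 62.9% ± 2.64 was within the spread (exact two-sided permutation test, p = 0.8, where 3 against 3 allows no p below 0.1). An antisense transcript, Gm45774, overlaps Mt2 in exons on the opposite strand, and whether counting used strand is not stated. The level of Gm45774 was not examined, and any part of its reads in the Mt2 level was not tested. No stretch of 50 bases of an Mt1, Mt2 or Dusp1 transcript was shared with another annotated gene.

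The promoter windows of the metallothionein pair are shown because both genes rose and both carry the core letters of metal response elements near the start. Capitals mark TGCACNC and TGCGCNC, the forms of that core, ACANNNTGT, and the antioxidant response element TGACNNNGC, on either strand (RefSeq, GRCm38.p6, plus strand).
Mt1 chr8:94178839-94179088: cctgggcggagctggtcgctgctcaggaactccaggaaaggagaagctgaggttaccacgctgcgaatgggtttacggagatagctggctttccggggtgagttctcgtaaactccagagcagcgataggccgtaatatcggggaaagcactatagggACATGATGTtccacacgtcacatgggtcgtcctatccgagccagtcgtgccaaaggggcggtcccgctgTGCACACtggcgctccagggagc
Mt2 chr8:94172368-94172617: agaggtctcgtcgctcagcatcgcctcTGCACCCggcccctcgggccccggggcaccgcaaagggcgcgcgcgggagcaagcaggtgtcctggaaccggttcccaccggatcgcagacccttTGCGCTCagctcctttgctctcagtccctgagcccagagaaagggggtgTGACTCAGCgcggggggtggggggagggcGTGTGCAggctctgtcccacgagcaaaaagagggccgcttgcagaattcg
The Mt1 window held 3 metal cores, at -23 to -17 and, past the printed stretch, at 3 to 9 and 21 to 27 after the start that RefSeq annotates. The search ended 50 bases after that start, so any cores further on were not counted. The Mt2 window held 4, beginning at -223, at -128, at -50 on the opposite strand and at 5 on the opposite strand. Among all 32851 windows, 25.7% held at least 1 core of either form, 1.97% at least 3 and 0.517% at least 4. Mt1 had 1 glucocorticoid element core at -92 to -84, and Mt2 had 1 antioxidant element at -79 to -71, a motif found in 12.4% of windows. Dusp1, which was not called, had 1 metal core of the form TGCGCNC, present in 15.4% of windows, and 1 antioxidant element.

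**Figure D3:**
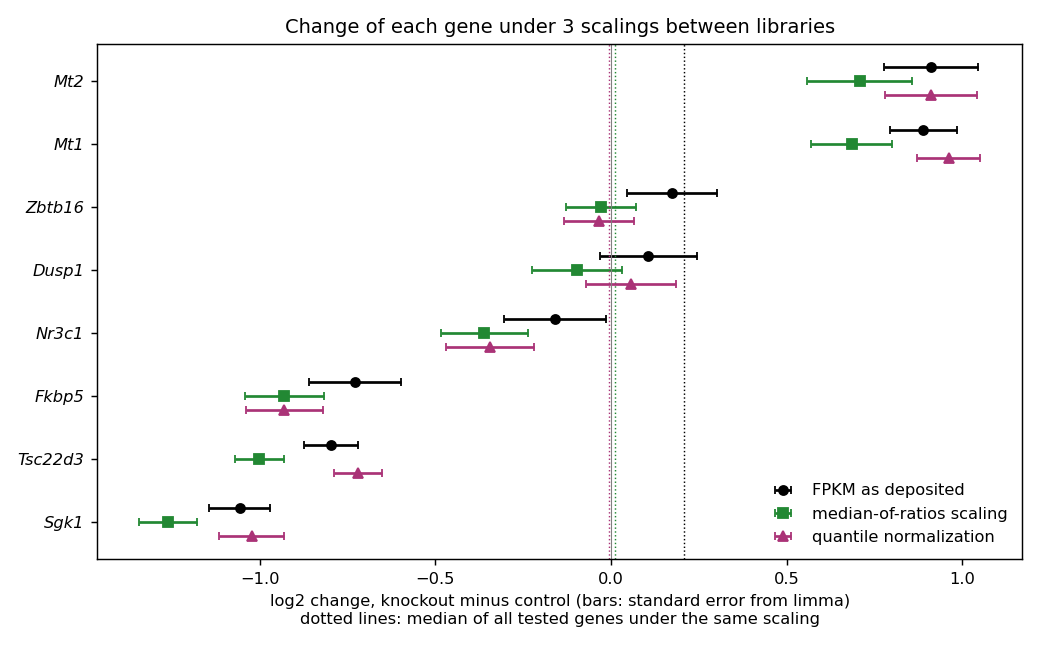
Log2 change, knockout minus control, of each of the 8 genes with its limma standard error (bars) for FPKM as deposited, median-of-ratios scaling and quantile normalization; dotted lines mark the median of all tested genes under each. Sgk1, Tsc22d3 and Fkbp5 lie to the left of 0 and Mt1 and Mt2 to the right under all 3, while Zbtb16 and Dusp1 change sign.

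Scaling between libraries moved the size of each change but not the 5 calls. Across 16 refits Sgk1 ranged from -1.26 to -1.01, Tsc22d3 from -1.001 to -0.72 and Fkbp5 from -0.93 to -0.62. Mt1 ranged from 0.69 to 0.98 and Mt2 from 0.71 to 1.03 over the same refits. Of these refits, the plot of changes by scaling shows median-of-ratios scaling and quantile normalization, beside the FPKM as deposited. In bulk tissue, fewer cells of a type and less RNA per cell cannot be told apart, and other cell types moved as well. Of T and NK cell markers 5 of 5 tested were raised, with summed levels of 0.386 to 1.13 FPKM in controls and 12.4 to 18.4 FPKM in knockouts, with Nkg7 at 0 in all controls and Klrb1c at 0 in every library. Of B cell markers 5 of 5 tested were raised, from 0.0855 to 0.231 FPKM in controls to 11.97 to 15.03 FPKM in knockouts, with Cd79a, Ms4a1 and Pax5 at 0 in all controls.

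Other marker lists were measured in the same way. Adipocyte markers summed to 403 to 417 FPKM in controls and 449 to 513 FPKM in knockouts, with 6 of 7 tested raised. Cidec and Cfd among them were 2.47-fold and 2.27-fold higher, while Fabp4, which makes up most of that sum, had 333 and 317 FPKM and was not called. Fibroblast markers summed to 456 to 482 and 497 to 579 FPKM, with 4 of 6 raised and 1 lowered, and Schwann cell markers to 74.3 to 82.5 and 113 to 122 FPKM, with 4 of 6 raised. Macrophage markers had 1 of 9 raised, at 134 to 152 FPKM in controls and 154 to 176 FPKM in knockouts, and of 2 granulocyte and 7 endothelial markers tested none was called. Endothelial markers summed to 64.8 to 73.6 FPKM in controls and 69.5 to 76.3 FPKM in knockouts, and granulocyte markers, with Ly6g at 0 in every library, to 0.731 to 2.21 FPKM and 2.46 to 4.999 FPKM. Red cell markers had 3 of 5 lowered, at 219 to 266 and 152 to 185 FPKM, and smooth muscle markers 2 of 6 lowered, at 146 to 155 and 134 to 137 FPKM. Fibre markers had 4 of 11 raised and 6 lowered. With median-of-ratios scaling the raised calls of C1qa (adjusted p = 0.318), Pparg, Col1a2 and Mb were lost, and Pecam1 (adjusted p = 0.0252) and Fabp4 (adjusted p = 0.0266) were called lowered. With quantile normalization 4 fibre markers were lowered, as Acta1 (log2 change 0.13, adjusted p = 0.491) and Ttn were no longer called. Alas2 and Myh11 were then called lowered and Dcn raised, and the raised calls of Pparg, Pdgfra and S100b were lost. All 5 tested markers of T and NK cells and all 5 of B cells were called raised under either scaling. The part of these cell types in the levels of the 8 genes was not tested.

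Of 15 tested genes for steroid receptors, hormone-activating enzymes and chaperones of the complex, 6 were raised and 3 lowered, with a median change of 0.01. Hsp90aa1 and Hsp90ab1, the Hsp90 genes that hold the receptor in its hormone-binding form, rose from 35.0 ± 3.54 to 227 ± 11.6 FPKM and from 351 ± 1.15 to 538 ± 20.6 FPKM (adjusted p = 6.64e-07 and 7.49e-05). Their partners Dnaja1, an Hsp40, and Hspa8, the constitutive Hsp70, rose from 17.3 ± 2.26 to 35.7 ± 5.71 FPKM and from 674 ± 13.4 to 852 ± 40.3 FPKM. Fkbp4, the immunophilin that Fkbp5 competes with in the complex, fell from 54.1 ± 6.25 to 41.7 ± 3.28 FPKM (adjusted p = 0.0239). Ppid, the third immunophilin of the complex, had 37.2 ± 2.98 FPKM in controls and 31.6 ± 3.87 FPKM in knockouts, and Ptges3, the co-chaperone p23, 19.6 ± 2.99 and 17.6 ± 1.92 FPKM, and neither was called. The Fkbp4 call was lost when control replicate 2 or 3 or knockout replicate 1 or 3 was left out. Raised genes numbered 3 under median-of-ratios scaling, where Hspa8 (adjusted p = 0.125), Hspa4 and Stip1 were no longer called. Under the same scaling Ppid was called lowered (log2 change -0.44, adjusted p = 0.0196), and Ptges3 was not (-0.35, adjusted p = 0.0512).

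Local activation of the hormone also had a lowered gene. H6pd, which supplies NADPH to the enzyme that regenerates active glucocorticoid, fell from 9.87 ± 1.61 to 5.95 ± 0.384 FPKM (log2 change -0.71, adjusted p = 0.0065). The gene of that enzyme, Hsd11b1, had 7.51 ± 0.677 FPKM in controls and 6.64 ± 1.53 FPKM in knockouts and was not called (adjusted p = 0.409). Of 14 coactivators and corepressors, 6 were raised and 2 lowered, with a median change of 0.44. The corepressor gene Ncor1 rose from 32.8 ± 1.57 to 49.5 ± 2.18 FPKM (adjusted p = 0.000781). The coactivator Ncoa3 and the remodelling ATPase Smarca4 rose by log2 changes of 0.83 and 0.80. Hdac3, the deacetylase that works with this corepressor, fell from 36.6 ± 0.961 to 26.1 ± 1.02 FPKM, and the metabolic coactivator Ppargc1a from 5.77 ± 1.10 to 3.17 ± 1.01 FPKM, the latter call being lost without control replicate 1 or 2 or knockout replicate 1 or 2.

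**Figure D4:**
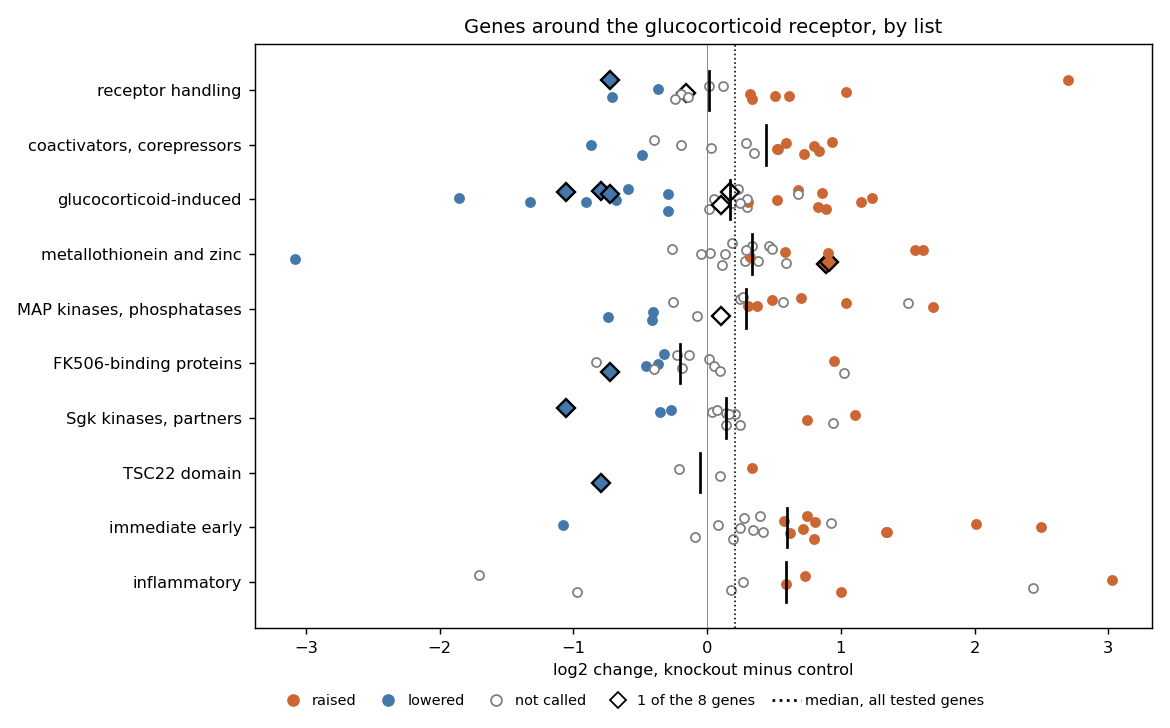
Log2 change, knockout minus control, of every tested gene in 10 lists (points; colour by call, diamonds for the 8 genes), with each list's median (bar) and the median of all tested genes (dotted line, 0.21). Glucocorticoid-induced genes lie on both sides of 0, with Arrdc2, Trim63 and Sgk1 furthest left, and the FK506-binding proteins have a median of -0.20.

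The wider set of glucocorticoid-induced genes did not move one way. Leaving out the members, 24 genes were tested, of which 8 were raised, 7 lowered and 9 not called, with a median change of 0.24. Arrdc2, an arrestin-domain gene, fell from 23.8 ± 0.719 to 6.52 ± 0.789 FPKM (log2 change -1.86, adjusted p = 1.36e-05). Trim63, the ubiquitin ligase MuRF1 of muscle atrophy, had a log2 change of -1.33. The 4 raised genes with the smallest p-values were Tgm2, a transglutaminase, from 25.01 ± 1.09 to 46.3 ± 2.09 FPKM, Errfi1, an inhibitor of the EGF receptor, from 10.1 ± 0.745 to 18.4 ± 1.27 FPKM, Angptl4, an inhibitor of lipoprotein lipase, from 2.79 ± 0.535 to 6.27 ± 0.758 FPKM, and Cdkn1a, the cell cycle inhibitor p21, from 13.1 ± 0.890 to 21.2 ± 2.70 FPKM. Under median-of-ratios scaling the counts were 5 raised and 7 lowered with a median of 0.04, and without knockout replicate 2 they were 5 and 6.

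Classical targets of the set, picked here after their values were seen, also differed among themselves. Klf9, a Krüppel-like factor induced by the receptor in many tissues, fell from 31.3 ± 4.70 to 19.4 ± 1.64 FPKM (adjusted p = 0.0044), and Fbxo32, the atrophy ligase atrogin-1, from 46.1 ± 3.57 to 37.5 ± 1.43 FPKM (adjusted p = 0.0267). Klf15, a muscle target that promotes amino acid breakdown, had 12.5 ± 1.27 FPKM in controls and 12.8 ± 2.96 FPKM in knockouts (adjusted p = 0.968). The clock gene Per1 had 7.45 ± 0.786 and 9.16 ± 0.711 FPKM and was not called (adjusted p = 0.0974).

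Of 14 FK506-binding protein genes, 1 was raised and 4 lowered, with a median change of -0.20. Fkbp3, a nuclear member, fell from 166 ± 4.11 to 121 ± 2.05 FPKM (adjusted p = 0.000592), and Fkbp15 rose from 2.65 ± 0.176 to 5.21 ± 0.206 FPKM. Lowered members numbered 7 under median-of-ratios scaling and 2 without control replicate 2 or 3 or knockout replicate 1 or 3. Among 13 tested Sgk kinases, activators and substrates, 2 were raised and 3 lowered, with a median of 0.14. Pdpk1, the kinase that activates Sgk1, rose from 3.27 ± 0.842 to 6.99 ± 0.505 FPKM (adjusted p = 0.0038), and the Sgk1 substrate Wnk1 from 77.9 ± 11.2 to 130 ± 12.1 FPKM (adjusted p = 0.0017). Ndrg2, another substrate, fell from 855 ± 13.1 to 711 ± 41.6 FPKM (log2 change -0.27, adjusted p = 0.0079). That call ended under quantile normalization (-0.14, adjusted p = 0.212), with the authors' signal columns and with no mean-variance trend. The relative Sgk3 had 2.06 ± 0.212 and 2.46 ± 0.280 FPKM and was not called.

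For Dusp1, 16 MAP kinase phosphatase and kinase genes were tested, with 6 raised, 3 lowered and a median of 0.29. Dusp10, which also acts on p38 and Jnk, fell from 14.7 ± 0.817 to 8.82 ± 1.41 FPKM (adjusted p = 0.0035), as did the p38 genes Mapk12, from 76.8 ± 4.08 to 57.5 ± 0.229 FPKM, and Mapk14, from 38.3 ± 3.10 to 28.9 ± 1.18 FPKM. Dusp5 and Dusp16 rose by log2 changes of 1.69 and 0.70. Raised genes numbered 2 under median-of-ratios scaling, 3 under quantile normalization and 3 without control replicate 1, knockout replicate 2 or knockout replicate 3. Dusp1 is also an immediate early gene, and of 20 genes of that kind 10 were raised and 1 lowered, with a median of 0.60. Atf3, Btg2, Egr2 and Junb rose by log2 changes of 1.33, 1.34, 2.01 and 0.81, while the orphan receptor gene Nr4a1 fell from 64.1 ± 3.84 to 30.5 ± 3.83 FPKM.

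Metallothionein levels were set beside the genes that move zinc. Of 21 tested genes for metallothioneins, the metal sensor and zinc transporters, 7 were raised and 1 lowered, with a median of 0.33. The importers Slc39a10 and Slc39a6 rose from 1.08 ± 0.241 to 3.34 ± 0.340 FPKM and from 1.06 ± 0.270 to 3.41 ± 0.573 FPKM (adjusted p = 0.000817 and 0.0012). Slc30a2, which moves zinc into vesicles, fell from 6.50 ± 0.294 to 0.699 ± 0.203 FPKM, a log2 change of -3.08 (adjusted p = 3.18e-05). The other genes named here were picked after their values were seen. Mtf1, the sensor that binds metal response elements, had 2.12 ± 0.267 and 2.94 ± 0.298 FPKM and Slc30a1, an exporter that Mtf1 controls, 1.10 ± 0.0952 and 1.72 ± 0.237 FPKM, and neither was called (adjusted p = 0.0717 and 0.0556). Mt3 had 3.75 ± 0.731 and 4.91 ± 0.933 FPKM and was not called, and Mt4 was listed at 0 in every library. Raised genes numbered 4 without knockout replicate 2.

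Inflammatory genes that glucocorticoids repress, listed together with the NF-kappaB subunit genes Nfkb1 and Rela, were mostly low in both groups. Of 14 listed, 9 were tested, and 4 of these were raised and none lowered, with a median of 0.59. The chemokine gene Cxcl10 rose from 0.217 ± 0.125 to 2.40 ± 0.635 FPKM (adjusted p = 0.000547), the adhesion gene Icam1 from 1.71 ± 0.240 to 3.55 ± 0.746 FPKM, and Rela, an NF-kappaB subunit, from 6.15 ± 0.599 to 10.3 ± 1.29 FPKM. Cxcl10 averaged under the filter of 0.5 FPKM in controls and passed it through the knockouts. The raised call of Vcam1 was lost under median-of-ratios scaling (limma adjusted p = 0.0789) and under quantile normalization (limma adjusted p = 0.230). T and B cell markers rose in the same libraries, as given above.

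Likeness of pattern was measured over the 6 libraries as the Euclidean distance between log2 values, each taken from the gene's control mean, among the 5807 genes that averaged 5 FPKM or more. Fkbp5 and Tsc22d3 lay near each other at 0.212, with 9 of the searched genes nearer to Fkbp5, while Sgk1 lay at 0.629 from Fkbp5. Mt1 and Mt2 lay 0.246 apart, with 9 genes nearer to Mt1. The genes most like Nr3c1 were Cpd (0.0761) and Bmpr1a (0.12), and those most like Fkbp5 were Abhd16a (0.141) and Scn4b (0.149). Tsc22d3 was nearest to Prune (0.104) and Pgk1 (0.107), and Sgk1 to Ddit4l (0.149) and Anapc5 (0.15).

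Of the genes that were not called, Zbtb16 was nearest to Fam120a (0.0846) and Rhoq (0.0936), and Dusp1 to Vamp2 (0.0552) and Fgfr1op2 (0.129). Mt1 was nearest to Iffo1 (0.131) and Dnal4 (0.136), and Mt2 to Habp4 (0.18) and Ppif (0.212). These distances describe 6 libraries that share depth and scaling, and are given with no test.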

How the data were processed

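Quadriceps RNA from 3 control and 3 knockout libraries was analysed from the table the authors deposited. Per the labels' protocols, ribosomal RNA was removed and a stranded total RNA kit used. Per the submitters' processing notes, reads were trimmed with cutadapt 1.9.3, aligned with HISAT2 2.0.4 to mm10 and quantified with Cufflinks and Cuffdiff (no version stated). FPKM values were deposited by the authors, and how they were scaled between libraries is not stated. The columns the authors headed as counts hold a scaled signal: 92.6% to 94.2% of values above 0 are whole multiples of 1 constant per library within a tolerance of 0.1. All 48 values of the 8 genes came out whole, and these give the estimated fragments and exact 95% Poisson intervals.

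Tests used limma 3.58.1 in R 4.3.3, lmFit and eBayes with a mean-variance trend, on log2(FPKM + 0.1), and were tested on simulated data. Alternatives were pseudocounts of 1 and 0.01, no filter or 2 FPKM, other scalings, the signal columns, no trend, robust variances, a replicate block, a threshold of 0.01 and leaving out each library. The 8 genes and the gene lists were chosen with earlier results of these data known. Named genes were the 8, Fbxw7, up to 4 raised and 4 lowered per list with the smallest p and groups that did not overlap, and the 2 genes most like each member; others are said to be picked later, and 1 gene that the rule picked is not reported here. Gene positions came from GENCODE M21 by identifier. Promoter windows of 300 bases, 250 before the start and 50 after, came from RefSeq and are described for 6 of the genes. Nr3c1 was left out of this description by choice, and Zbtb16 had no window.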

Additional observations from a re-analysis of the deposited data

How the results depend on the processing

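The calls of Sgk1, Tsc22d3, Fkbp5, Mt1 and Mt2 held under all 17 alternatives tried, with adjusted p no higher than 0.0158 across the refits, and Nr3c1 and Zbtb16 passed in none of them. Zbtb16 changed sign with median-of-ratios scaling (-0.0277) and after quantile normalization (-0.0354), and Dusp1 under median-of-ratios scaling (-0.10). The Mt1 share difference ranged from -1.92 to 0.406 percentage points over the libraries left out, turning positive without knockout replicate 2 (0.406) or 3 (0.315). The cause was not tested.

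Over all genes, 4037 were called, and 2168 at a threshold of 0.01. Raised genes numbered 2860 as deposited, 1724 under median-of-ratios scaling, 1715 under quantile normalization and 1460 at 0.01, and lowered genes 1177, 2018, 1696 and 708. Leaving out 1 library gave 3029 to 3876 called. Across the 10 lists, 74 genes were called, with 48 at 0.01, and 51 were raised, with 33 under median-of-ratios scaling and 31 at 0.01. Of 46 genes outside the 8 that the naming rule picked, 34 held in every alternative run for them and none reversed, and Cxcl10, Dusp5, Egr2 and Vcam1 lay under the filter of 2 FPKM and were not fitted there. The calls of Fkbp1a, Mapk3, Dusp8 and Vcam1 ended in 5 to 10 alternatives each, and Stub1 and Ncoa3 with the signal columns.

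Replicate numbers were shared between groups. Same-numbered deviations from the group means correlated at -0.0659, 0.197 and 0.176, and differently numbered ones at -0.291 to 0.183. With 3 libraries per group, whose deviations balance out, these correlations cannot decide whether the numbers pair the libraries. With the replicate block 5 of the 8 genes were called, and 2655 genes were raised and 1173 lowered. Depth limits Mt2 most, at 76 estimated fragments in knockout replicate 1.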
